A study of Mus musculus with 19 samples.

Results

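The CCAAT/enhancer-binding protein (C/EBP) family and its close relatives were followed in neoplastic lung cells from 3 groups of mice. Its members were taken by gene symbol, as *Cebpa*, *Cebpb*, *Cebpd*, *Cebpe*, *Cebpg*, *Cebpz* and *Ddit3*, which are 7 of the 53558 gene rows of each library. All 7 symbols were present. *Cebpe* had 0 counts in all 19 libraries, and the other 6 passed the filter on low counts and were among the 13986 genes tested.

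C/EBPα, C/EBPβ, C/EBPδ and C/EBPε, encoded by *Cebpa*, *Cebpb*, *Cebpd* and *Cebpe*, are basic leucine zipper (bZIP) transcription factors that bind DNA as homodimers or as heterodimers with each other. C/EBPγ (*Cebpg*) has the same DNA-binding domain but lacks the activation domains of its relatives, and CHOP (*Ddit3*) pairs with them while binding poorly to their usual site. CEBPZ carries the family name for its reported binding to a CCAAT box, but it is not a bZIP protein and takes part in ribosome assembly in the nucleolus. In the alveolar epithelium C/EBPα and C/EBPδ are known for driving surfactant genes in alveolar type II cells, while *Cebpb* and *Cebpd* are also inducible genes of the inflammatory and acute-phase response.

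Tumors had been initiated in mice that carried R26LSL-tdTomato and H11LSL-Cas9, whose fluorescent reporter and Cas9 depend on Cre. The mice received 60 µL of a lentiviral vector that carried Cre with inert sgRNAs (sgNeo1, sgNT and sgNeo2; the sgInert group, 7 libraries), with sgRNAs against *Cebpa*, *Cebpb* and *Cebpd* together (sgCebpa/b/d, 7 libraries) or with an sgRNA against *Lkb1* (sgLkb1, 5 libraries). After 17 weeks tdTomato-positive cells that lacked surface markers of hematopoietic and endothelial cells were sorted, and their RNA was sequenced in bulk. Every group therefore carries the reporter, Cas9 and Cre, and sgInert is the group without an edited target.

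The library titles fall into series that are not balanced over the viruses. Animal numbers that start with ZR stand in the titles of 4 sgInert libraries (3 male, 1 female). Those that start with MT stand in the titles of 3 sgInert libraries (2 female, 1 male), 4 sgCebpa/b/d libraries (all female) and 3 sgLkb1 libraries (all female). The titles of 3 sgCebpa/b/d libraries (all male) and 2 sgLkb1 libraries (both female) have no number. Only MT numbers occur with all 3 viruses, while ZR numbers occur only in sgInert and titles without a number only in the edited groups. Virus and title series are therefore partly confounded in each comparison with sgInert over all libraries. Within sgCebpa/b/d the title series and the sex cannot be told apart. Some numbered libraries share an animal (2 in sgInert, 3 in sgCebpa/b/d, 2 in sgLkb1), and p-values therefore measure the spread between libraries and not between animals.

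The promoters of the members that differed most are shown first, because the members are themselves regulated at transcription. The 250 bases before the RefSeq start (GRCm38.p6) were found for *Cebpa*, *Cebpb*, *Cebpg* and *Ddit3*, and not for *Cebpd*, *Cebpe* and *Cebpz*. *Cebpa* and *Cebpg* are printed since they differed between sgCebpa/b/d and sgInert, and *Cebpb* since it differed most between title series. They were searched on both strands for the C/EBP palindrome TTGCNNAA, the C/EBP-ATF composite site TTGCATCA, the cyclic AMP response element TGACGTCA, its shorter form TGACG (which lies within the longer one), CCAAT and TATAAA. Capitals mark the matches, read 5′ to 3′ on the strand of the gene.
*Cebpa*, chr7:35119043-35119292, plus strand: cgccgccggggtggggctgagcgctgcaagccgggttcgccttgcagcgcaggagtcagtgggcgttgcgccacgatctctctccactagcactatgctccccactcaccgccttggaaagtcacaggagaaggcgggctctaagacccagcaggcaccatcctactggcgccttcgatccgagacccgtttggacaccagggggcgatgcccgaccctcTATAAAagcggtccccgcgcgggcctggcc
*Cebpb*, chr2:167688665-167688914, plus strand: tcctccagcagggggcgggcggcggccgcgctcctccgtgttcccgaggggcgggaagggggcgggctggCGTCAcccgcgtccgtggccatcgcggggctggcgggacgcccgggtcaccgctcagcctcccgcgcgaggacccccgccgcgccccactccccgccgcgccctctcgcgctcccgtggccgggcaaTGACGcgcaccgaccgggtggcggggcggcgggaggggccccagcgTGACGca
*Cebpg*, chr7:35056567-35056816, minus strand: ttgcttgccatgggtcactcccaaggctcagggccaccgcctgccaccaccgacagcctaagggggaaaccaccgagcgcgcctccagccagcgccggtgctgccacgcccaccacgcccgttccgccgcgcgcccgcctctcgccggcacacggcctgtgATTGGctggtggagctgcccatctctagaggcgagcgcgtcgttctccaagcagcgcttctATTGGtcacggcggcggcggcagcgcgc

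The *Cebpa* promoter held TATAAA, starting 30 bases before the start, a motif present in 12.4% of the 32851 promoters of this length. In *Cebpb* the short element TGACG stood 3 times, on the strand opposite to the gene (read as CGTCA) starting 180 bases and on that of the gene starting 53 and 7 bases before the start, and 17.8% of promoters held it at least once. *Cebpg* had 2 CCAAT motifs on the strand opposite to the gene (read as ATTGG), which start 89 and 28 bases upstream, against 33.8% of all promoters with 1 or more. *Ddit3* had 1 CCAAT on the opposite strand, 77 bases upstream. The palindrome, the composite site and the full response element were found in none of these 4 windows, and in 9.56%, 0.791% and 1.55% of all promoters. The GC content of the windows was 66.4% (*Cebpa*), 81.6% (*Cebpb*), 70.8% (*Cebpg*) and 64.8% (*Ddit3*).

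The authors' deposited expected counts summed to between 2760731 and 9944134 per library, with a median of 6028922. *Stk11*, the mouse symbol of *Lkb1*, was measured at 11.1, 10.2, 9.02, 15.25 and 7.55 TPM (transcripts scaled to a fixed total per library) in sgLkb1 libraries and at 17.54 to 27.84 TPM in sgInert libraries (median 21.94). The highest sgLkb1 library was thus below the lowest of sgInert, and the log2 fold change was −1.24 (with a standard error, SE, of 0.17, edgeR adjusted p = 1.07e-04). Cas9 leaves small insertions and deletions that need not lower the amount of RNA, so that the RNA of *Cebpa*, *Cebpb* and *Cebpd* is no check of their editing. Epithelial markers (*Epcam*, *Cdh1*, *Krt8*, *Krt18*) summed to between 370.66 and 956.29 TPM and the 10 alveolar type II markers to between 32653 and 70051 TPM, so that the sorted cells carried the markers of their label in every library.

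Gene levels are given in TPM, which are corrected for length and can be compared between members. Over the 19 libraries the median was 43.14 TPM for *Cebpa*, 39.35 TPM for *Cebpg*, 36.81 TPM for *Cebpd*, 17.44 TPM for *Cebpz*, 9.26 TPM for *Ddit3* and 5.5 TPM for *Cebpb*. *Cebpe*, which is known from late stages of granulocyte development, was measured at 0 counts in every library, which allows at most 3 counts in each by counting error alone. The ranges of *Cebpa* (26.74 to 86.11 TPM), *Cebpg* (25.33 to 50.23 TPM) and *Cebpd* (15.26 to 83.61 TPM) overlapped widely, so that their order varied between libraries. *Cebpb* (11 to 141 counts) and *Ddit3* (9 to 78 counts) rested on the fewest reads and are the least precisely measured. The highest library exceeded the lowest 6.49 times for *Cebpb*, 5.48 times for *Cebpd*, 4.90 times for *Ddit3*, 3.22 times for *Cebpa*, 2.74 times for *Cebpz* and 1.98 times for *Cebpg* in TPM.

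**Figure D1:**
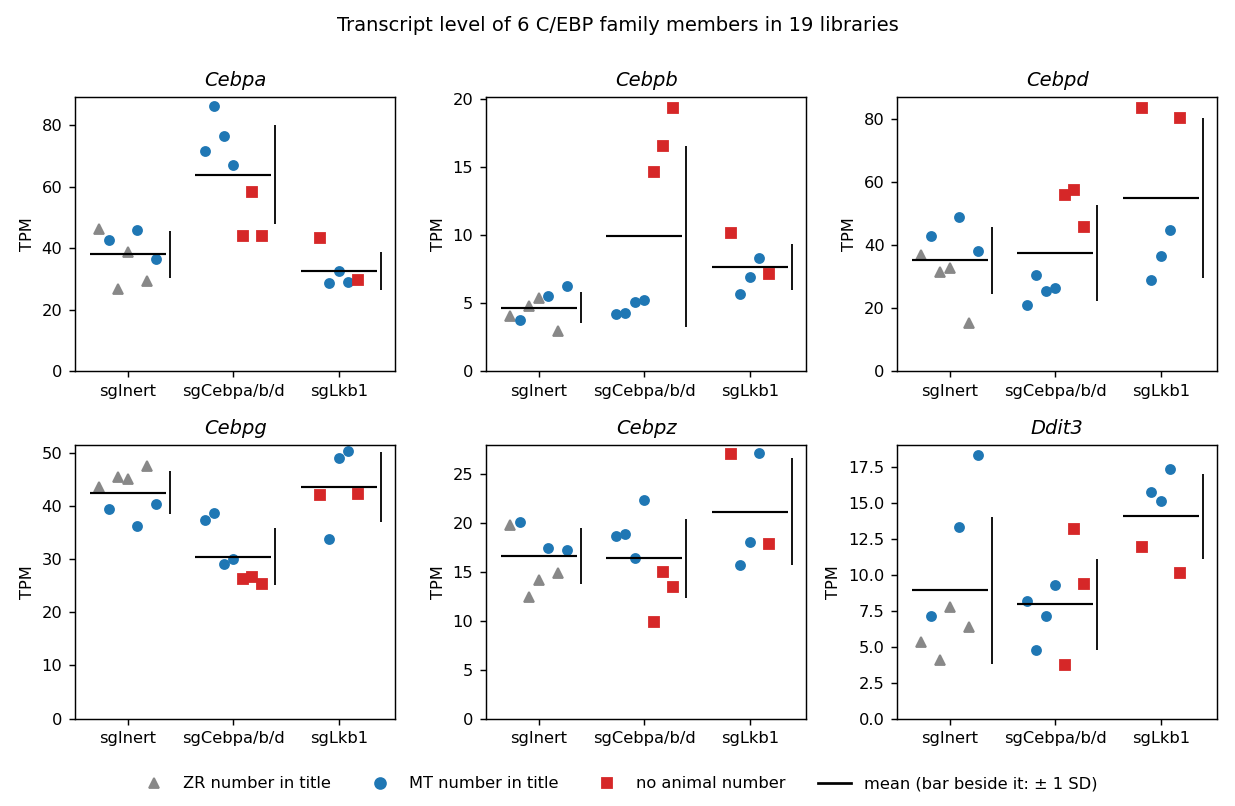
Level of the 6 detected members in each library, in TPM (vertical axes, linear from 0), for sgInert, sgCebpa/b/d and sgLkb1. Each point is 1 library, with its title series given by shape and colour, and bars show the mean and SD of a group. *Cebpa* is higher in sgCebpa/b/d, and the sgCebpa/b/d libraries without an animal number stand above the others of that group in *Cebpb* and *Cebpd*.

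The members lie on 6 chromosomes of GRCm38. *Cebpa* (7, 35119293 to 35121928, plus strand) and *Cebpg* (7, 35046422 to 35056573, minus strand) are neighbours, 62719 bases apart with 4 genes between them, of which 0 are protein coding. *Cebpb* (2, 167688915 to 167690418) and *Cebpd* (16, 15887286 to 15891031) have 1 exon each. *Cebpe* (14, 54710360 to 54712174) and *Cebpz* (17, 78919006 to 78937066) are on the minus strand, with 2 and 16 exons, and *Ddit3* is on the plus strand of chromosome 10 (127290774 to 127296288). All detected members share bases with a gene on the other strand, which are *Gm45091* for *Cebpa* (313 bases), *Gm45095* for *Cebpg* (353 bases), *Tmem189* for *Cebpb* (908 bases), *Spidr* for *Cebpd* (1808 bases), *Cebpzos* for *Cebpz* (1301 bases) and *Mars* (68 bases) and *Gm4189* (15 bases) for *Ddit3*. The sources used here do not state whether strand was used in counting, so that reads in the shared bases may belong to either gene. RSEM's own posterior SD reached 7.18 counts for *Cebpd* and 0.19 for *Cebpb*, and was 0 for *Cebpa*, *Cebpg*, *Cebpz* and *Ddit3*.

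The comparison of sgCebpa/b/d with sgInert asks how the family stood after its 3 targeted members had been edited. *Cebpa*, itself a target of the sgRNAs, rose, and *Cebpg*, which is not targeted, fell. The other 2 targets, *Cebpb* and *Cebpd*, did not pass the test over all libraries, and neither did *Cebpz* or *Ddit3*. With edgeR 2 of the 6 members tested were called at an adjusted p under 0.05, 1 higher and 1 lower, where 10.1% of all genes tested were called.

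*Cebpa* was measured at 26.74 TPM in the lowest, 38.62 TPM in the median and 46.36 TPM in the highest of 7 sgInert libraries, and at 43.86, 67.12 and 86.11 TPM in the lowest, median and highest of 7 sgCebpa/b/d libraries. In log2 CPM (counts scaled to library size, on a log scale) all 7 sgCebpa/b/d libraries (6.17 to 6.97) lay above every sgInert library (5.43 to 6.11), while in TPM the ranges overlapped slightly. The log2 fold change was 0.73 (SE 0.14, 95% interval 0.43 to 1.02, edgeR adjusted p = 0.00148), a level 1.66 times that of sgInert. Of all genes 1.28% were higher in every sgCebpa/b/d than in every sgInert library. The call was kept in all 14 alternatives and in all 19 fits that left out 1 library.

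*Cebpg* was measured at 36.19, 43.59 and 47.47 TPM (lowest, median and highest) in sgInert and at 25.33, 28.99 and 38.64 TPM in sgCebpa/b/d. All 7 sgCebpa/b/d libraries (6.38 to 6.95 log2 CPM) lay below the lowest sgInert library (6.96 log2 CPM), by a narrow margin at the nearest, and in TPM the ranges overlapped. Its log2 fold change was −0.54 (SE 0.10, 95% interval −0.75 to −0.32, edgeR adjusted p = 0.00141). Of all genes 2.09% were lower in every sgCebpa/b/d than in every sgInert library. Among MT-numbered libraries alone *Cebpg* was not called (log2 fold change −0.34, edgeR adjusted p = 0.190), nor with the title series as a covariate (edgeR adjusted p = 0.0983) or in female libraries only (edgeR adjusted p = 0.197).

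*Cebpb* was measured at 2.97, 4.76 and 6.23 TPM (lowest, median and highest) in sgInert and at 4.19, 5.21 and 19.29 TPM in sgCebpa/b/d. Only the 3 sgCebpa/b/d libraries without an animal number exceeded the sgInert range. Its log2 fold change was 1.16 (SE 0.37, edgeR adjusted p = 0.0524), and −0.24 (edgeR adjusted p = 0.782) among MT-numbered libraries. The value lay close to the threshold, and leaving out MT-numbered sgCebpa/b/d replicate 1, 2, 3 or 4 brought the edgeR adjusted p to 0.0276, 0.0234, 0.0331 or 0.0311. *Cebpb* was also called in 3 of 14 alternatives, by DESeq2 (adjusted p = 0.0249), with libraries of an animal summed (edgeR adjusted p = 0.0307) and with sex as a covariate (edgeR adjusted p = 0.0436).

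*Cebpd*, the C/EBP member best known as an immediate responder to cytokines and glucocorticoids, was measured at 15.26, 36.81 and 49.1 TPM (lowest, median and highest) in sgInert and at 21.04, 30.68 and 57.46 TPM in sgCebpa/b/d. The ranges overlapped widely, and the log2 fold change over all libraries was 0.20 (SE 0.28, 95% interval −0.39 to 0.79, edgeR adjusted p = 0.742). Among MT-numbered libraries its direction was the opposite, at 42.84, 49.1 and 38.08 TPM in sgInert against 21.04, 30.68, 25.58 and 26.42 TPM in sgCebpa/b/d. Every one of these 4 sgCebpa/b/d libraries was below the 3 sgInert libraries, but the share of genes separated in this way was not counted here. In the split of 3 against 4 libraries within sgCebpa/b/d, 22.2% of genes did not overlap. Between the MT-numbered groups the level of *Cebpd* fell by 0.77 on the log2 scale (SE 0.19, edgeR adjusted p = 0.0203). *Cebpa* was called with it and rose by 0.75 (SE 0.17, edgeR adjusted p = 0.00991), where 5.09% of 15744 genes were called.

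Among these MT-numbered libraries the fibroblast markers (8 genes) summed to 5.14 to 6.64 TPM in sgInert and to 30.47 to 139.0 TPM in sgCebpa/b/d, and 5 of 7 tested were called higher, while the immune markers summed to 9.28 to 18.66 and 8.53 to 12.14 TPM. Their part in the difference of *Cebpd* was not tested. The 4 sgCebpa/b/d libraries come from 2 animals.

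*Cebpz* and *Ddit3* had the smallest log2 fold changes over all libraries. *Cebpz* was measured at 12.48, 17.21 and 20.09 TPM in sgInert and at 9.91, 16.41 and 22.38 TPM in sgCebpa/b/d, with a log2 fold change of −0.05 (95% interval −0.36 to 0.26, edgeR adjusted p = 0.893). *Ddit3* was measured at 4.06, 7.12 and 18.31 TPM in sgInert and at 3.74, 8.16 and 13.2 TPM in sgCebpa/b/d, with a log2 fold change of −0.15 (95% interval −0.84 to 0.54, edgeR adjusted p = 0.839). The groups overlapped nearly whole for both genes, and the intervals still allow a moderate difference of *Ddit3* in either direction.

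**Figure D2:**
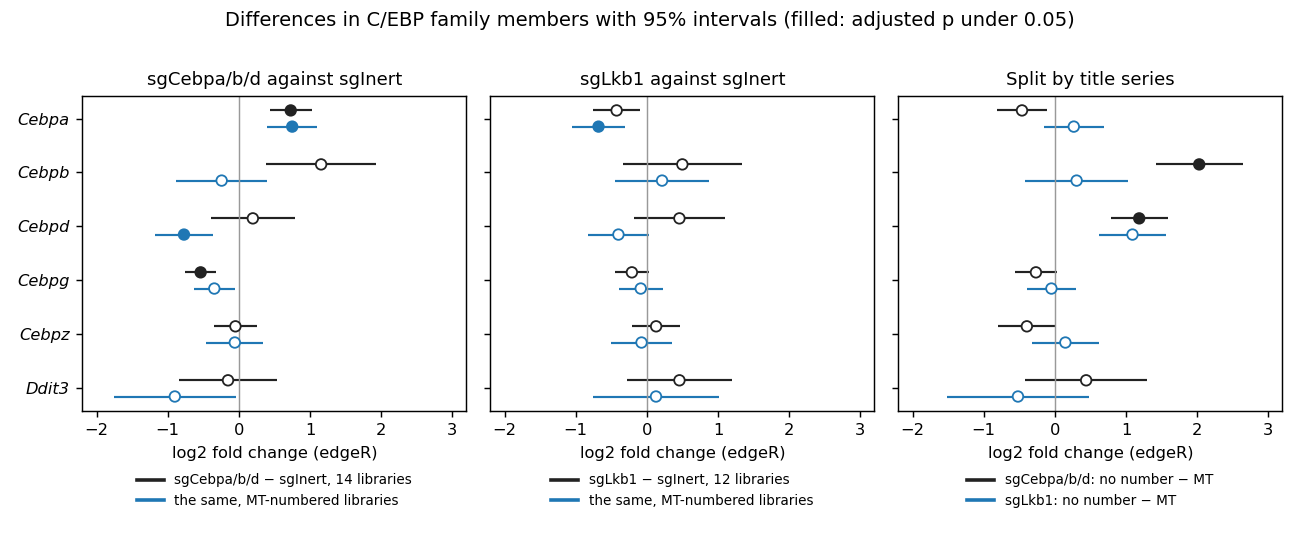
Log2 fold changes of the 6 detected members from edgeR (horizontal axes), with bars for 95% intervals, filled where the adjusted p was under 0.05. The left and middle panels compare sgCebpa/b/d and sgLkb1 with sgInert over all libraries (black) and MT-numbered libraries (blue), and the right panel compares libraries without an animal number with MT-numbered ones within sgCebpa/b/d (black) and sgLkb1 (blue). *Cebpa* lies near 0.75 in both fits of the left panel, whereas *Cebpd* lies at 0.20 and −0.77.

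The comparison of sgLkb1 with sgInert asks whether the family changed at the RNA level after targeting of the gene for the kinase LKB1, a tumor suppressor of the lung. Of the 6 members 0 were called by edgeR, 1 had an unadjusted p under 0.05, and DESeq2 and limma called 0 and 0. Of all genes tested 5.78% were called, and 18.5% had an unadjusted p under 0.05. *Cebpa* was measured at 43.14, 28.73, 32.54, 28.85 and 29.57 TPM in the 5 sgLkb1 libraries, 3 of which lay below every sgInert library in log2 CPM. The share of all genes with such a count was not computed here. The log2 fold change of *Cebpa* was −0.42 (SE 0.16, 95% interval −0.75 to −0.10, edgeR adjusted p = 0.125). The value passed the threshold among MT-numbered libraries (−0.68, edgeR adjusted p = 0.0341, where 4.4% of genes were called), with sex as a covariate (−0.62, edgeR adjusted p = 0.0116) and in female libraries only (−0.57, edgeR adjusted p = 0.0331).

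None of the remaining members passed the test in sgLkb1. In log2 CPM 2 of 5 libraries exceeded every sgInert library in *Cebpd*, *Cebpb* and *Cebpz* each, though not the same 2 for every gene. The share of all genes with such a count was not computed here. *Cebpb* stood at 5.67 to 10.11 TPM (log2 fold change 0.50, edgeR adjusted p = 0.569) and *Cebpd* at 28.81 to 83.61 TPM (0.46, edgeR adjusted p = 0.470). *Cebpg* was found at 33.82 to 50.23 TPM (−0.21, edgeR adjusted p = 0.338), *Cebpz* at 15.66 to 27.15 TPM (0.13, edgeR adjusted p = 0.739) and *Ddit3* at 10.11 to 17.35 TPM (0.46, edgeR adjusted p = 0.547). The 95% interval of *Ddit3* ran from −0.28 to 1.19, so that its sgLkb1 level is not well bounded at this depth.

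The 2 edited groups share their sgInert controls, and were also compared with each other. For *Cebpa* the lowest of 7 sgCebpa/b/d libraries exceeded the highest of 5 sgLkb1 libraries (43.86 to 86.11 against 28.73 to 43.14 TPM), with a log2 fold change of 1.15 (SE 0.16, edgeR adjusted p = 7.17e-05), 2.23 times the level of sgLkb1. It was the only member of 6 that edgeR called, where 5.96% of all genes were called and 2.22% were higher in every sgCebpa/b/d than in every sgLkb1 library. Among MT-numbered libraries its log2 fold change was 1.43 (edgeR adjusted p = 2.84e-05, where 3.89% of genes were called). *Cebpg* had a log2 fold change of −0.33 (SE 0.11, edgeR adjusted p = 0.0989), which became −0.40 with an edgeR adjusted p of 0.0394 without sgCebpa/b/d replicate 2 and −0.40 with 0.0437 without sgLkb1 replicate 2. For *Ddit3* 5 of 7 sgCebpa/b/d libraries lay below every sgLkb1 library, at a log2 fold change of −0.61 (SE 0.35, edgeR adjusted p = 0.384). How many of all genes had such a count was not computed here.

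The members also differed in the share each took of the family's RNA. Summed over the family, TPM ranged from 116 to 167 in sgInert, from 154 to 187 in sgCebpa/b/d and from 128 to 218 in sgLkb1, so that the totals overlapped. The share of *Cebpa* was 28.0% to 47.8% in sgCebpa/b/d, against 21.4% to 29.7% in sgInert and 15.8% to 22.4% in sgLkb1. *Cebpg* took 14.2% to 23.2%, 21.6% to 40.8% and 19.3% to 30.9% of the sum in the same order. As a result the level of *Cebpa* relative to *Cebpg* was 0.588 to 1.27 in sgInert and 1.67 to 2.63 in sgCebpa/b/d, ranges that did not overlap, and 0.574 to 1.03 in sgLkb1. These shares restate the levels above and were not tested.

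**Figure D3:**
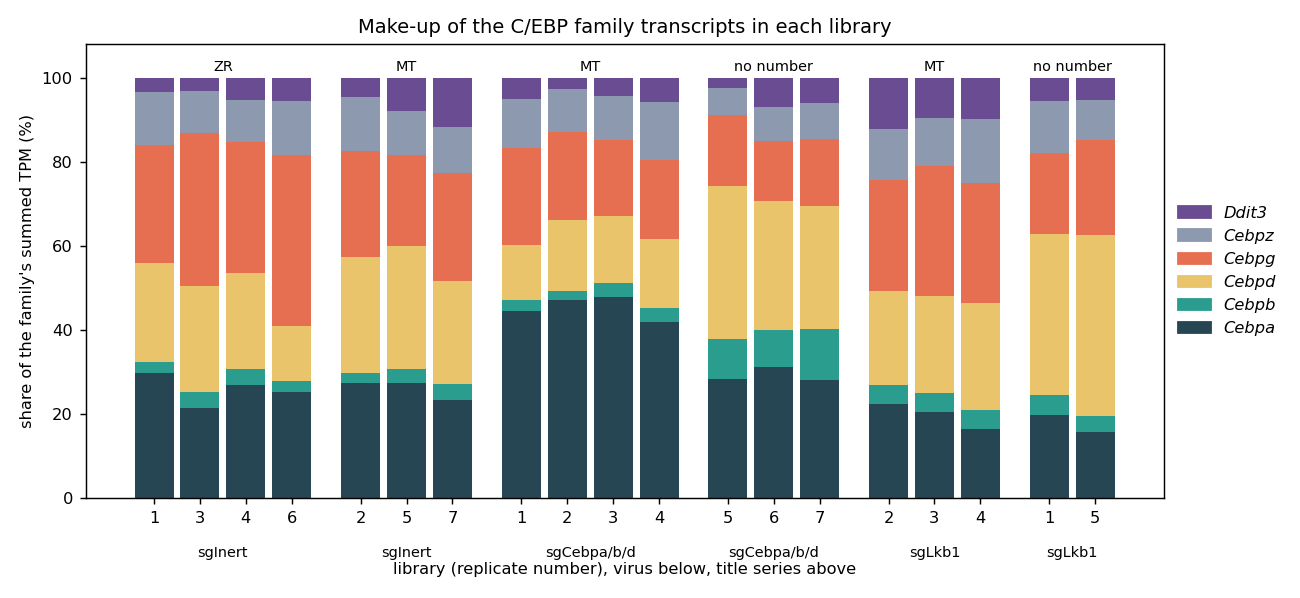
Share of each member in the family's summed TPM (vertical axis, percent from 0 to 100) for each of the 19 libraries, ordered by virus and title series. Each bar is 1 library and each colour 1 member. *Cebpa* takes 41.8% to 47.8% in MT-numbered sgCebpa/b/d libraries, and *Cebpb* and *Cebpd* take larger shares in the 3 sgCebpa/b/d libraries without an animal number.

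All 4 MT-numbered sgCebpa/b/d libraries had the same order of levels, which was *Cebpa*, *Cebpg*, *Cebpd*, *Cebpz*, *Ddit3* and *Cebpb*. In the 3 sgCebpa/b/d libraries without a number *Cebpb* ranked 4 of 6, while in every other library it was the lowest detected member, except 1 ZR-numbered sgInert library in which *Ddit3* was lower. Of the summed TPM of the 3 targeted genes *Cebpa* made up 68.0% to 73.9% in MT-numbered sgCebpa/b/d libraries, 38.3% to 44.0% in those without a number, 42.4% to 61.6% in sgInert and 25.3% to 45.5% in sgLkb1.

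The split by title series was tested within each virus. Within sgCebpa/b/d *Cebpb* and *Cebpd* were higher where no animal number was given, and within sgLkb1 *Cebpd* had a value of like size that missed the threshold. *Cebpb*, which is switched on by interleukins and endoplasmic reticulum stress, was measured at 14.59, 16.54 and 19.29 TPM in the 3 sgCebpa/b/d libraries without a number and at 4.19, 4.26, 5.09 and 5.21 TPM in the 4 MT-numbered ones. The 2 sets were far apart. Its log2 fold change was 2.03 (SE 0.29, edgeR adjusted p = 3.24e-04), 4.08 times the MT level.

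*Cebpd* was measured at 56.09, 57.46 and 45.71 TPM in sgCebpa/b/d libraries without a number and at 21.04, 30.68, 25.58 and 26.42 TPM in MT-numbered ones. These sets did not overlap either, and the log2 fold change was 1.19 (SE 0.19, edgeR adjusted p = 8.18e-04). With sex as a covariate the edgeR adjusted p of *Cebpd* was 0.0580, although series and sex coincide within this virus and are separated there only through the other groups. In this comparison 2 of the 6 members were called by edgeR, both higher, where 7.43% of 15744 genes were called and 3.99% of the 15744 were called higher, and 22.2% of genes did not overlap between the sets.

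*Cebpa* was lower in the same libraries by value, at 43.86, 58.14 and 43.96 TPM against 71.51, 86.11, 76.32 and 67.12 TPM. The sets did not overlap, but the log2 fold change of −0.46 (SE 0.17) had an edgeR adjusted p of 0.0988. It was called in 2 of 7 alternatives, by limma (−0.63, adjusted p = 0.0448) and with only the groups compared (−0.45, edgeR adjusted p = 0.0473). *Cebpg* (−0.27, edgeR adjusted p = 0.280), *Cebpz* (−0.39, edgeR adjusted p = 0.243) and *Ddit3* (0.44, edgeR adjusted p = 0.581) did not pass the test.

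Within sgLkb1, where all 5 libraries are female, *Cebpd* was measured at 83.61 and 80.36 TPM in the 2 libraries without a number and at 28.81, 36.67 and 44.9 TPM in the 3 MT-numbered ones. Its log2 fold change was 1.09 (SE 0.23, 95% interval 0.62 to 1.56, edgeR adjusted p = 0.0577). Of the 6 members 0 were called by edgeR, 1 had an unadjusted p under 0.05, DESeq2 called 1 and limma 0. Here 0.14% of genes were called, 6.27% had an unadjusted p under 0.05, and 24.1% did not overlap between the sets. The edgeR adjusted p of *Cebpd* was 0.0451, 0.0411 or 0.00280 without sgInert replicate 1, 3 or 6 and 0.0487 without sgCebpa/b/d replicate 2. These libraries are in neither set and enter only through the shared fit, by the genes kept, the scaling, the spread and the adjustment of p. *Cebpb* stood at 10.11 and 7.14 TPM without a number and at 5.67, 6.94 and 8.29 TPM in MT-numbered libraries, so that the sets overlapped (log2 fold change 0.31, edgeR adjusted p = 0.991).

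Among the libraries without a number, *Cebpb* was higher by value in the 3 sgCebpa/b/d than in the 2 sgLkb1 libraries (log2 fold change 1.27, 95% interval 0.53 to 2.01, edgeR adjusted p = 0.0507), and *Cebpa* likewise (0.70, edgeR adjusted p = 0.0616). The 3 sgCebpa/b/d libraries are male and the 2 sgLkb1 libraries female, so that virus and sex cannot be told apart in this comparison. Here 0 of 6 members were called by edgeR, 4 had an unadjusted p under 0.05, DESeq2 called 2 and limma 1, against 3.58% of genes called and 16.4% at that unadjusted p. Without sgInert replicate 6 the edgeR adjusted p of *Cebpb* was 0.0382 and that of *Cebpa* 0.0470, without sgInert replicate 2 that of *Cebpb* was 0.0481, and without sgInert replicate 1 that of *Cebpa* was 0.0357.

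Whether the split of a member differed between the 2 viruses was tested as an interaction, for which 0 of 6 members were called by edgeR, 2 had an unadjusted p under 0.05, DESeq2 called 1 and limma 0, against 0.121% and 10.1% of genes. For *Cebpb* the interaction was 1.72 on the log2 scale (SE 0.46, edgeR adjusted p = 0.198), for *Cebpa* −0.73 (edgeR adjusted p = 0.352) and for *Cebpd* 0.09 (95% interval −0.53 to 0.72). The split within sgCebpa/b/d is also one of male against female libraries, while all sgLkb1 libraries are female, so that the interaction mixes series and sex. Within sgInert, ZR-numbered libraries had 36.81, 31.51, 32.91 and 15.26 TPM of *Cebpd* against 42.84, 49.1 and 38.08 TPM in MT-numbered ones (log2 fold change −0.66, edgeR adjusted p = 0.0977), and *Ddit3* was at 5.35, 4.06, 7.78 and 6.37 against 7.12, 13.35 and 18.31 TPM (−1.14, edgeR adjusted p = 0.187). There edgeR called 0 of 6 members, 2 had an unadjusted p under 0.05, DESeq2 called 1 and limma 0, against 1.84% of genes called and 14.9% at that unadjusted p.

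Markers of cells outside the sort gate were read beside *Cebpb* and *Cebpd*. Those of immune cells were higher without a number within both viruses, whereas *Cebpb* overlapped between the sets of sgLkb1. The 14 immune markers, among them *Ptprc*, which encodes the CD45 used to exclude cells, summed to 104.85 to 202.37 TPM in sgCebpa/b/d libraries without a number and to 8.53 to 12.14 TPM in MT-numbered ones. In sgLkb1 they summed to 105.43 and 142.2 TPM without a number and to 11.37 to 24.72 TPM in MT-numbered libraries, and in sgInert to 9.28 to 78.58 TPM. Of 11 immune markers tested 9 were called higher within sgCebpa/b/d and 1 within sgLkb1, where 7.43% and 0.14% of all genes were called. Of the 14 markers, 0 were at 0 in every library, but only 3 had a median of at least 1 TPM over the 19 libraries. The others could pass the filter on low counts through the libraries where they were high. The count of calls is therefore a description and no separate support. *Ptprc* reached 21.63 TPM.

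The 8 endothelial markers summed to 101.83 to 125.6 TPM against 12.34 to 27.19 TPM within sgCebpa/b/d. Within sgLkb1 they summed to 56.22 to 106.03 against 32.75 to 64.3 TPM. In these 2 comparisons 7 and 0 of 8 were called higher, where 7.43% and 0.14% of all genes were called. Fibroblast markers overlapped between the sets of sgCebpa/b/d (90.43 to 110.79 against 30.47 to 139.0 TPM). Neutrophil granule markers, the usual company of *Cebpe*, reached at most 2.37 TPM, and *Mpo* and *Camp* were at 0 in all libraries. Within sgCebpa/b/d the granule markers summed to 0.9 to 2.37 TPM without a number and to 0 TPM in MT-numbered libraries. *S100a8* and *S100a9*, counted here among the immune markers, reached 25.44 and 61.53 TPM, so that an absence of neutrophils is not shown. Genes of the immediate early response, which tissue dissociation can also raise, summed to 6888 to 8144 TPM in sgCebpa/b/d libraries without a number against 3933 to 5660 TPM in MT-numbered ones, but to 4205 to 5458 against 4872 to 6021 TPM in sgLkb1. Their part in the levels of *Cebpb* and *Cebpd* was not tested. In bulk RNA, fewer cells of a type and less RNA per cell cannot be told apart.

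**Figure D4:**
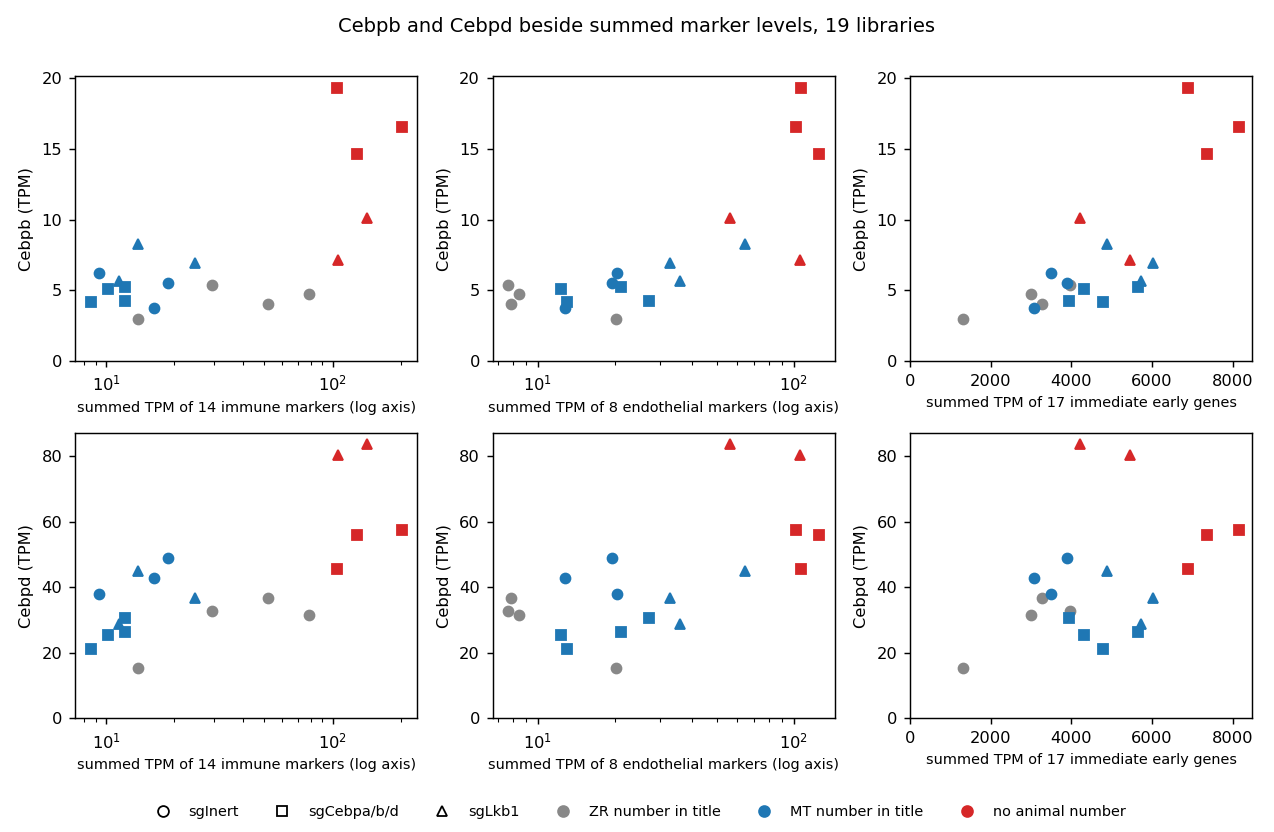
TPM of *Cebpb* (upper panels) and *Cebpd* (lower panels) in each of the 19 libraries against the summed TPM of 14 immune markers, 8 endothelial markers (both on log axes) and 17 immediate early genes. Each point is 1 library, shaped by virus and coloured by title series. The libraries without an animal number of both viruses lie at 105 to 202 TPM of immune markers, where *Cebpb* is at 14.59 to 19.29 TPM in those of sgCebpa/b/d and at 7.14 and 10.11 TPM in those of sgLkb1.

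Partners and regulators of the family were read from lists chosen with results of these data known. Among 13 other bZIP and CCAAT-binding factors tested, 2 were higher and 1 lower in sgCebpa/b/d than in sgInert, where 10.1% of all genes were called, with a median log2 fold change of 0.13 against 0.02 over all genes. *Fos*, an AP-1 subunit, rose by 1.52 (SE 0.33, edgeR adjusted p = 0.00364), *Jun*, its partner, by 0.82 (edgeR adjusted p = 0.0488), and *Atf5*, a stress-inducible relative that can pair with C/EBPs, fell by 1.64 (SE 0.25, edgeR adjusted p = 1.65e-04). *Jun* was not called in 14 of 19 fits that left out 1 library, and its log2 fold change was −0.04 among MT-numbered libraries. There 0 were higher and 2 lower of 15 tested, namely *Atf4*, the main factor of the integrated stress response (−0.63, edgeR adjusted p = 0.00275), and *Atf5* (−1.78, edgeR adjusted p = 0.00277). In sgLkb1 1 of 13 was higher (*Fos*, 1.18, edgeR adjusted p = 0.0470, not called in 11 of 19 fits that left out 1 library). Between the 2 edited groups 1 of 13 was lower (*Atf5*, −0.94, edgeR adjusted p = 0.0421, not called in 9 of 19). Of all genes 5.09% were called among MT-numbered sgCebpa/b/d and sgInert libraries, 5.78% in sgLkb1 and 5.96% between the edited groups.

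Regulators of C/EBP level or activity numbered 21. Among them are the Tribbles proteins that send C/EBPα for degradation, the kinases of the translation factor eIF2 and the interleukin-6 receptor chain. In sgCebpa/b/d 0 were higher and 1 lower, with a median of −0.17 against 0.02, where 10.1% of all genes were called. The lower one was *Gsk3b*, a kinase that phosphorylates C/EBPα and C/EBPβ (−0.49, SE 0.11, edgeR adjusted p = 0.00441). Its call was lost in 7 of 14 alternatives, with −0.20 among MT-numbered libraries (edgeR adjusted p = 0.471). In sgLkb1 edgeR called 0 of 21, 2 had an unadjusted p under 0.05, DESeq2 and limma called 0 and 0, and the median was 0.04. Of all genes 5.78% were called there, and 18.5% had an unadjusted p under 0.05. Between the edited groups *Fbxw7*, a ubiquitin ligase subunit, was lower (−0.49, edgeR adjusted p = 0.0458), and was not called in 14 of 19 fits that left out 1 library. Of 8 coactivators and chromatin partners edgeR called 0 in sgCebpa/b/d and 0 in sgLkb1, with 1 and 1 at an unadjusted p under 0.05 and 0 called by DESeq2 or limma, and medians of −0.01 and −0.11.

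Transcription factors that act with C/EBPs in alveolar type II cells, such as *Nkx2-1*, *Foxa1* and *Foxa2*, numbered 7. In sgCebpa/b/d and in sgLkb1, where 10.1% and 5.78% of all genes were called, 1 of 7 was lower and 0 higher. It was *Etv5*, measured at 95.32, 177.35 and 185.15 TPM (lowest, median and highest) in sgInert, at 39.65, 73.54 and 108.79 TPM in sgCebpa/b/d and at 89.32, 107.67 and 126.76 TPM in sgLkb1. Against sgInert it fell by 1.15 on the log2 scale in sgCebpa/b/d (edgeR adjusted p = 1.63e-04) and by 0.68 in sgLkb1 (edgeR adjusted p = 0.0423), where it was not called in 11 of 19 fits that left out 1 library. The 8 nucleolar partners of CEBPZ had medians of −0.02 and 0.04, and edgeR called 0 in each group, with 1 and 1 at an unadjusted p under 0.05, 0 by DESeq2 and 0 and 1 by limma.

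Of the known C/EBP target genes, 17 of 20 listed were tested. Against 10.1% of all genes called, 8 of these 17 were called in sgCebpa/b/d, 7 lower (*Lyz2*, *Abca3*, *Scd1*, *C3*, *Lcn2*, *Ptgs2* and *Sftpc*) and 1 higher (*Il1b*), with a median log2 fold change of −1.24 against 0.02 over all genes. Several of them are also markers of alveolar type II cells, in which the study examined these groups, so that the list is not independent of what was known of these samples. In sgLkb1 4 of 17 were lower and 0 higher, against 5.78% of all genes called, with a median of −0.33 against −0.01 over all genes. With MT-numbered libraries alone, 2 of 18 were lower (*Lyz2* and *Sftpa1*) and 2 higher (*Hp* and *Scd1*) in sgLkb1. The median there was −0.08 against 0.02 over all genes, and 4.4% of genes were called.

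*C3*, the central complement component, was measured at 59.74, 92.19 and 158.48 TPM (lowest, median and highest) in sgInert, at 4.33, 17.16 and 36 TPM in sgCebpa/b/d and at 74.37, 105.06 and 123.98 TPM in sgLkb1. It fell by 2.17 on the log2 scale in sgCebpa/b/d (SE 0.23, edgeR adjusted p = 1.25e-06). *Scd1*, a fatty acid desaturase, was measured at 2018, 2765 and 4242 TPM in sgInert, at 539.5, 981.65 and 1469 TPM in sgCebpa/b/d and at 4295, 4588 and 6350 TPM in sgLkb1, and fell by 1.68 in sgCebpa/b/d (SE 0.17, edgeR adjusted p = 7.59e-07). For both genes every sgCebpa/b/d library was below every library of the other groups in TPM. The share of genes separated from both groups was not counted here. In log2 CPM 2.09% of all genes were lower in every sgCebpa/b/d than in every sgInert library.

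*Abca3*, which loads lipid into lamellar bodies, was measured at 162.47 to 231.41 TPM in sgInert, 47.5 to 116.26 TPM in sgCebpa/b/d and 135.05 to 199.93 TPM in sgLkb1 (log2 fold change −1.33 in sgCebpa/b/d, edgeR adjusted p = 7.59e-07). *Lyz2*, lysozyme, whose reads may be shared with the near-identical *Lyz1*, ran from 13254 to 21847 TPM in sgInert, from 454 to 3342 TPM in sgCebpa/b/d and from 3881 to 7721 TPM in sgLkb1 (−3.52, edgeR adjusted p = 2.51e-07, and −1.94, edgeR adjusted p = 0.00104). The calls of *Lyz2*, *Abca3*, *Scd1* and *C3* in sgCebpa/b/d were kept in all 14 alternatives and all 19 fits that left out 1 library. *Il1b* had at most 5 counts in sgInert and at most 2 in MT-numbered sgCebpa/b/d libraries, against 70 to 156 in those without a number, where immune markers were also high.

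Surfactant protein genes made up 3 of the 4 targets lower in sgLkb1, with *Sftpa1* at −1.08 (edgeR adjusted p = 0.00310), *Sftpc* at −0.39 (edgeR adjusted p = 0.0324) and *Sftpd* at −0.33 (edgeR adjusted p = 0.0414). The calls of *Sftpc* and *Sftpd* were lost in 9 and 12 of 19 fits that left out 1 library. Compared with sgLkb1, sgCebpa/b/d libraries had 7 of 17 targets lower and 1 higher (*Sftpa1*), with a median of −0.87 against 0.03, led by *Scd1* (−2.21, edgeR adjusted p = 1.38e-07), *C3* (−2.14, edgeR adjusted p = 6.03e-06), *Lcn2* (−1.45, edgeR adjusted p = 4.35e-04) and *Abca3* (−0.87, edgeR adjusted p = 4.83e-04). Among MT-numbered libraries 6 of 18 targets were lower and 1 higher (*Hp*) in sgCebpa/b/d, with a median of −1.17 against 0.01. Of all genes 5.96% were called between the edited groups and 5.09% in this MT-numbered comparison.

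**Figure D5:**
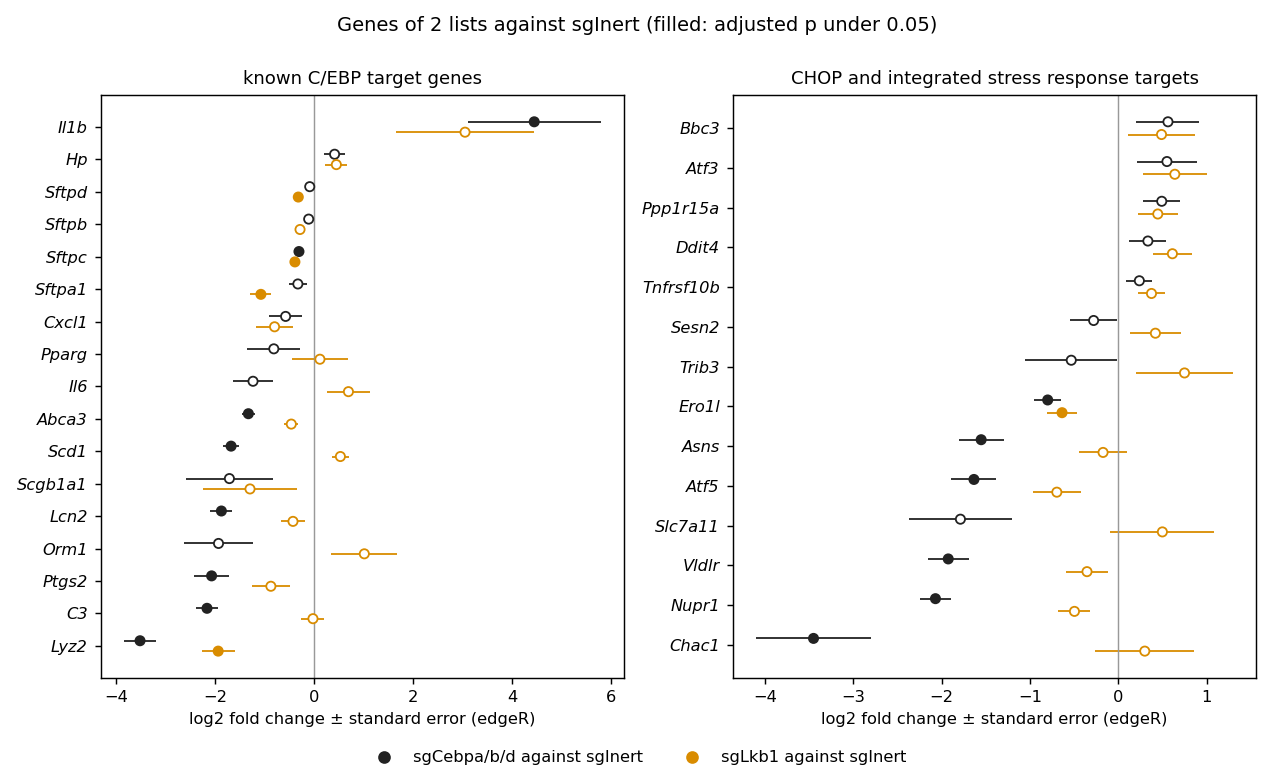
Log2 fold changes from edgeR against sgInert (horizontal axis, bars for 1 standard error) of the known C/EBP targets and of the CHOP and integrated stress response targets that were tested, for sgCebpa/b/d (black) and sgLkb1 (orange). *Lyz2*, *C3*, *Scd1*, *Nupr1* and *Vldlr* are far below 0 in sgCebpa/b/d. *Il1b* and *Chac1* have few counts in some groups, so that their positions depend on the fit.

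Of 14 targets of CHOP and of the integrated stress response tested, 6 were lower and 0 higher in sgCebpa/b/d, where 10.1% of all genes were called and *Ddit3* itself did not pass the test (*Nupr1*, *Vldlr*, *Atf5*, *Asns*, *Chac1* and *Ero1l*), with a median log2 fold change of −0.67 against 0.02 over all genes. *Nupr1*, a small stress-induced chromatin protein, was measured at 75.25, 100.99 and 117.63 TPM (lowest, median and highest) in sgInert and at 16.56, 25.5 and 29.89 TPM in sgCebpa/b/d, with no overlap. It fell by 2.07 on the log2 scale (SE 0.17, edgeR adjusted p = 9.66e-08). In log2 CPM 2.09% of all genes were lower in every sgCebpa/b/d than in every sgInert library. *Vldlr*, a lipoprotein receptor, was measured at 18.93 to 30.48 TPM in sgInert and at 2.84 to 9.56 TPM in sgCebpa/b/d (−1.93, edgeR adjusted p = 7.29e-06), and *Asns*, asparagine synthetase, at 21.89 to 40.87 and 4.39 to 15.98 TPM (−1.55, edgeR adjusted p = 2.79e-04).

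In sgLkb1 the same list had 1 of 14 lower (*Ero1l*, −0.64, edgeR adjusted p = 0.0262, not called in 5 of 19 fits that left out 1 library) and 0 higher, with a median of 0.40 against −0.01. There *Nupr1* was measured at 46.19 to 124.11 TPM and *Vldlr* at 15.99 to 36.43 TPM, ranges that overlapped those of sgInert. Compared with sgLkb1, 6 of 14 were lower in sgCebpa/b/d (median −0.82 against 0.03), among them *Nupr1* (−1.57, edgeR adjusted p = 1.02e-05), *Vldlr* (−1.57, edgeR adjusted p = 2.55e-04) and *Asns* (−1.38, edgeR adjusted p = 0.00262). *Chac1* had at most 3 counts in any sgCebpa/b/d library and 8 to 41 in sgLkb1 libraries, so that no fold is given. Among MT-numbered libraries 6 of 14 were again lower in sgCebpa/b/d than in sgInert, with a median of −0.80 against 0.01. Of all genes 5.78% were called in sgLkb1, 5.96% between the edited groups and 5.09% in this MT-numbered comparison.

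Immediate early genes, among which *Cebpb* and *Cebpd* are often counted, were higher in sgCebpa/b/d than in sgInert for 8 of 17 and lower for 0, against 10.1% of all genes called, with a median of 0.82 against 0.02. *Dusp1*, a phosphatase of MAP kinases, rose by 1.15 (SE 0.24, edgeR adjusted p = 0.00319) and *Fosb*, an AP-1 subunit, by 1.504 (edgeR adjusted p = 0.00648). Restricted to MT-numbered libraries, 2 of 17 were called, the near-identical heat shock genes *Hspa1a* and *Hspa1b*, and the median was 0.15. Of all genes 5.09% were called there. In sgLkb1 2 were higher (*Fos* and *Dusp1*) and 2 lower (*Hspa1a* and *Hspa1b*), with a median of 0.62, where 5.78% of all genes were called. The calls of *Hspa1a*, *Hspa1b* and *Dusp1* were lost in 8, 5 and 7 of 19 fits that left out 1 library, and among MT-numbered libraries *Hspa1a* was at 0.56 and *Hspa1b* at 0.27. Within sgCebpa/b/d 6 of 17 were higher in libraries without a number (median 0.90 against 0.03), where 7.43% of genes were called. They included *Jund* (1.36, edgeR adjusted p = 0.00727) and *Junb* (1.23, edgeR adjusted p = 0.0166). Within sgLkb1 0 of 17 were called by edgeR, with 0 at an unadjusted p under 0.05 and 0 by DESeq2 or limma. Of all genes 0.14% were called there, and 6.27% had an unadjusted p under 0.05.

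In this split within sgCebpa/b/d 7.43% of 15744 genes were called, and 3.99% of the 15744 were called higher without a number. In the same comparison, 4 of 15 bZIP and CCAAT-binding factors were higher without a number and 0 lower. They were the clock-controlled factors *Tef* (1.80, edgeR adjusted p = 5.17e-04) and *Dbp* (2.31, edgeR adjusted p = 0.00760), with *Atf4* (0.52, edgeR adjusted p = 0.0113) and *Jun* (1.02, edgeR adjusted p = 0.0175). Of 18 known C/EBP targets 2 were higher and 4 lower, with a median of 0.04 against 0.03 over all genes, the lower ones being *Lyz2* (−1.66, edgeR adjusted p = 3.22e-04), *Sftpa1* (−1.02, edgeR adjusted p = 4.74e-04), *Abca3* (−0.67, edgeR adjusted p = 0.00267) and *Lcn2*.

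Other cell type markers differed between viruses, where 10.1% of all genes were called in sgCebpa/b/d and 5.78% in sgLkb1. Alveolar type I markers summed to 379.9 to 583.45 TPM in sgInert, 705.93 to 1429 TPM in sgCebpa/b/d and 671.21 to 863.93 TPM in sgLkb1, and 4 of 5 were called higher in sgCebpa/b/d. Of 10 alveolar type II markers 5 were lower in sgCebpa/b/d and 5 in sgLkb1. In sgCebpa/b/d 5 of 8 endothelial, 2 of 7 fibroblast and 1 of 4 epithelial markers were higher over all libraries. Among MT-numbered libraries 0 of 8, 5 of 7 and 0 of 4 were higher in the same order, where 5.09% of genes were called. Club and ciliated markers ranged from 22.72 to 911.25 TPM over all libraries, with 1 of 3 lower in sgLkb1 (*Cyp2f2*). The part of these markers in the levels of *Cebpa* and *Cebpg* was not tested.

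As a description, the genes whose log2 CPM followed each member most closely over the 19 libraries were taken from 11088 genes with an average log2 CPM above 2. The libraries share virus groups and title series, which shape these correlations. For *Cebpa* they were *Fgf1* (Pearson r 0.92), *Iqgap2* (0.89) and *Bmp4* (0.88), and within virus and title series their r was 0.34, 0.33 and 0.63. For *Cebpb* they were *Zfp36l1* (0.91), *Mmp12* (0.87) and *Tm4sf1* (0.86), which fell to 0.51, 0.24 and 0.26 within virus and series. *Mmp12* is known as a macrophage elastase.

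The genes nearest to *Cebpd* were *Gadd45g* (0.84), *Hecw2* (0.83) and *Cd274* (0.81), and *Gadd45g*, a stress-inducible gene, kept an r of 0.84 within virus and series. For *Cebpg* they were *Fam184a*, *S100g* and *Soat1* (each 0.86), with 0.56, 0.34 and 0.14 within virus and series. *Cebpz* was followed by *Ift74* (0.81), *Ctbp1* (0.80) and *Cstf2* (0.80), and *Ddit3* by *Ptov1* (0.79), *Nfyc* (0.73) and *Mcrs1* (0.71), most of which were close to those values within virus and series as well (0.69 to 0.88).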

How the data were processed

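RNA of 19 libraries of sorted neoplastic lung cells had been sequenced. Per the study's methods and the submitters' processing notes, the authors aligned reads to mm10 with STAR 2.6.1d and quantified genes with RSEM 1.2.30. The deposited tables give an expected count, the TPM, an effective length and posterior SDs per gene and library, with no replicates pooled. Whether strand was used in counting is not given in the sources used here. The 4 deposited tables of the authors' own DESeq2 1.26.0 comparisons hold fold changes and p-values and were not used.

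Members were matched by symbol. The expected counts, after rounding, were fitted with the quasi-likelihood test of edgeR 4.0.16 (R 4.3.3, TMM scaling, genes kept by filterByExpr with a minimum count of 10 and a total of 15). A model of the 3 virus groups tested 13986 genes, and a model of the 6 combinations of virus and title series tested 15744 genes. P-values were adjusted over all genes tested by Benjamini-Hochberg, with calls at an adjusted p under 0.05. Log2 CPM used a prior count of 2. TPM was used for levels and, with a pseudocount of 1, for limma 3.58.1. Groups came from the labels alone, and 1 further allele that all groups share is not reported here. The script was tested on simulated counts. The members and the lists were chosen with earlier results of these data known. Up to 4 called genes per list and comparison were named in order of p, together with 3 genes most like each member by Pearson r. Other called genes, and *Il1b*, *Chac1* and *Cyp2f2*, are named after their values were seen.

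Alternatives were DESeq2 1.42.0, its size factors in edgeR, limma on TPM, no filter, an offset for effective length, sex or title series as a covariate, female or MT-numbered libraries only, a replicate block, only the groups compared, libraries of an animal summed, a fold threshold, and leaving out each library. Leaving out the 5 libraries without an animal number was added after seeing the data. Promoters came from a RefSeq table (GRCm38.p6), which held 4 of the 7 members. Replicate numbers in the titles were compared over 17 pairs of libraries with the same number in different groups, whose deviations from the group means correlated at −0.36 to 0.36. Within groups no 2 libraries agreed within sampling noise (chi-square per gene 7.34 to 76.8 over 52 pairs). Intervals of counts cover counting error only.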

Additional observations from a re-analysis of the deposited data

Results flagged for a closer look

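In sgInert the *Cebpg* level of replicate 5 was 6.96 log2 CPM, the lowest of 7 libraries, with the next at 7.18. The gap made up 0.592 of the range of the group, above the critical value of 0.568 for 7 libraries. It was the only one of 18 groups of values (6 members in 3 virus groups) to stand out in this way, and chance gives about 1 in 20. This library narrows the margin between sgInert and sgCebpa/b/d in *Cebpg*, and *Cebpg* kept its call in sgCebpa/b/d without it. None of the 6 interactions of virus and title series passed the test.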

How the results depend on the processing

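For the members, 1374 alternative values were computed for 48 results. Direction and side of the threshold were kept in 1300, 4 lost the call, 35 gained one and 35 turned direction. The call of *Cebpa* in sgCebpa/b/d was kept throughout. For other named genes 1375 of 1662 values were kept, 282 lost the call and 5 turned direction. The causes were not tested, except that a fold threshold calls fewer genes by construction. Depth limits *Cebpb* and *Ddit3* most.

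The replicate block changed no call of a member (2, 0 and 1 called in sgCebpa/b/d and sgLkb1 against sgInert and against each other), and gave 1293, 873 and 661 genes called, against 1412, 809 and 833 without it. Libraries with the same number did not deviate together (6 of 17 pairs above 0.1, and 2 of 19 libraries most like their own number), so that they share only a number.

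For sgCebpa/b/d against sgInert (1412 genes) the count was 650 with a fold threshold, 802 among MT-numbered libraries, 926 with title series, 482 with unnumbered libraries as 1 animal, 703 in females (1 member) and 881 without the unnumbered libraries, a choice made after seeing the data. For sgLkb1 (809) it was 421 with a fold threshold, 1258 with sex, 532 with animals summed, 300 with unnumbered libraries as 1 animal and 525 without them, and 1 member was called with sex, among MT-numbered libraries and in females. Between edited groups (833) it was 391, 466, 155 and 455 with a fold threshold, animals summed, unnumbered as 1 animal and unnumbered left out, and limma called 2 members. Leaving out 1 library gave 1182 to 1469, 543 to 875 and 577 to 879 genes, and 2 to 3, 0 to 0 and 1 to 2 members.

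Within sgCebpa/b/d (1169) the count was 648 with a fold threshold, 1854 unfiltered and 131 with sex (1 member), and 567 to 1470 when 1 library was left out (757, 703, 567 and 647 without sgCebpa/b/d replicates 1, 3, 5 and 7), with 2 members throughout. Within sgLkb1 (22) it was 83 with DESeq2, 248 unfiltered, 66 with limma, 67 with only the groups compared and 5 to 33 with 1 library left out (5, 14, 10 and 11 without sgLkb1 replicates 1, 2, 3 and 5), and 1 member was called with DESeq2, its size factors, unfiltered and with only the groups compared (0 to 1). Within sgInert (290) it was 172 with a fold threshold, 640 with DESeq2 (1 member), 869 unfiltered (1 member), 140 with limma, 144 with sex, 15 with only the groups compared and 53 to 450 (177, 53, 450 and 177 without sgInert replicates 3, 5, 6 and 7). Among unnumbered libraries (563) it was 338, 969, 1032 and 205 with a fold threshold, DESeq2 (2 members), unfiltered (1) and sex, and 132 to 729 (320 and 319 without sgCebpa/b/d replicates 5 and 7, 132 and 211 without sgLkb1 replicates 1 and 5), and limma and the DESeq2 size factors called 1 member (0 to 2). For the interaction (19) it was 137 with DESeq2 (1 member), 363 unfiltered, 3 with sex, 89 with only the groups compared and 3 to 60 (10 and 60 without sgInert replicates 5 and 6, 8, 6, 7, 37 and 7 without sgCebpa/b/d replicates 1, 3, 5, 6 and 7, and 3, 5 and 11 without sgLkb1 replicates 1, 2 and 3).

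Log2 fold changes that turned direction in sgCebpa/b/d were *Cebpb* (−0.24 among MT-numbered libraries, −0.12 in females, −0.071 without unnumbered libraries), *Cebpd* (−0.77, −0.62 and −0.44 likewise, and −0.75 with title series, edgeR adjusted p = 0.0115), *Cebpz* (0.022 with unnumbered as 1 animal, 0.056 in females, 0.11 without unnumbered libraries, −0.11 to 0.032 with 1 library left out), *Ddit3* (−0.31 to 0.12 with 1 library left out) and *Jun* (−0.044 among MT-numbered libraries). In sgLkb1 they were *Cebpb* (−0.16 with title series), *Cebpd* (−0.40 among MT-numbered libraries, −0.44 with title series, −0.089 without unnumbered libraries), *Cebpg* (0.025 with limma), *Cebpz* (−7.69e-05 with sex, −0.075 among MT-numbered libraries), *Ddit3* (−0.087 with title series), *Hspa1b* (0.27 and 0.15) and *Hspa1a* (0.56 and 0.35 among MT-numbered libraries and with title series). Between edited groups they were *Cebpb* (−0.032 with sex, −0.46 among MT-numbered libraries, −0.57 in females, −0.43 without unnumbered libraries) and *Cebpz* (0.018 among MT-numbered libraries, 0.043 without unnumbered libraries). With 1 library left out, *Cebpg* (−0.19 to 0.063) and *Cebpz* (−0.10 to 0.40) within sgLkb1, *Ddit3* among unnumbered libraries (−0.35 to 0.30) and the interaction of *Cebpd* (−0.042 to 0.21, and −0.15 with limma) had values of both signs.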
